A study of Homo sapiens with 6 samples.

Results

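The 6 genes named C/EBP were followed through the induction of PLZF-RARA in a human myeloid line. Members were all probe sets whose platform annotation gave a single gene symbol and whose symbol was CEBPA, CEBPB, CEBPD, CEBPE, CEBPG or CEBPZ. This rule found 8 probe sets of 54675 on the array, 1 each for CEBPA, CEBPB, CEBPE and CEBPZ and 2 each for CEBPD and CEBPG. The cells were U937T:PLZF-RARa, an engineered derivative of the monocytic line U937. This derivative switches on the fusion of PLZF (ZBTB16) with the retinoic acid receptor RARA when tetracycline is withdrawn. The 3 uninduced samples grew with tetracycline at 0.1 ug/ml, and the 3 induced samples were washed in PBS and grown without it for 48 h. Both groups carried the inducible construct and were kept in puromycin (0.5 ug/ml) and G418 (1 mg/ml). The titles give 48 h for the uninduced samples too, while their source label places them before induction. All 6 samples are of 1 line, and whether it is a single clone is not given in the sources used here. No line without the fusion was analysed here, so effects of the fusion and of tetracycline withdrawal cannot be told apart. The labels do not say if replicates came from separate cultures. The p-values therefore set each group difference against the spread between these samples, which may be technical. With 3 arrays a group the precision of these p-values is limited.

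C/EBP proteins are transcription factors with a basic DNA-binding region and a leucine zipper, through which they pair with each other or with related factors and bind as dimers. In the myeloid lineage C/EBP alpha (CEBPA) is needed for the step to granulocyte-monocyte progenitors. C/EBP epsilon (CEBPE) is needed for the late steps of granulocyte maturation. C/EBP beta (CEBPB) is needed for emergency granulopoiesis, and C/EBP beta and delta (CEBPD) act in inflammatory gene expression. C/EBP gamma (CEBPG) lacks a classical activation domain and works as a partner, among others of ATF4 in the amino acid stress response. CEBPZ shares the name only: it has no leucine zipper of this family, carries the synonym NOC1 in the RefSeq gene table, and is a nucleolar protein of large ribosomal subunit assembly.

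Because CEBPE and CEBPA are known to be controlled by myeloid factors that bind close to their start sites, the 250 bases before each start are shown, 5′ to 3′ on the gene's own strand, from RefSeq (GRCh38.p14). Capitals mark a match to GAGGAA, a core bound by ETS factors such as PU.1 (SPI1). The CEBPE window is chr14:23119256-23119505, minus strand, and the CEBPA window is chr19:33302535-33302784, minus strand.
CEBPE: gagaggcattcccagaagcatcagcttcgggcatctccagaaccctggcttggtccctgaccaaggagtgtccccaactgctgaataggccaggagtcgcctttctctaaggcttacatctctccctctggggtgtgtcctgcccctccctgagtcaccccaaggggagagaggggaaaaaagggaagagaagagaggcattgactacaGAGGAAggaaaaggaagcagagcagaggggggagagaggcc
CEBPA: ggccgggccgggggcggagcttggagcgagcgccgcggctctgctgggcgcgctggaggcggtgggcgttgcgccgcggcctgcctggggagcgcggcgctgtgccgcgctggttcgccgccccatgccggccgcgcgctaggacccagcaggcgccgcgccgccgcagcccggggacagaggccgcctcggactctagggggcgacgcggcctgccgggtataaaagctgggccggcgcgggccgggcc
The CEBPE window held 1 match to GAGGAA, beginning 41 bases before the start, and the CEBPA window held 0. Of the other member windows that of CEBPZ held a match too, 223 bases before its start. Across 35116 windows of the same length, 23.6% held GAGGAA on either strand, so a match is common. The C/EBP site pattern TTGCNNAA, searched on both strands, was in 0 of the 7 windows of the 5 member genes for which a promoter was read, against 9.05% of all windows. The retinoic acid receptor half-site AGGTCA was in the CEBPZ window alone among them (12.1% of all windows), and the E-box CACGTG was in 0 of them (6.34% of all). CCAAT, the box after which the family is named, occurred in 1 of the CEBPB windows and in 1 of the CEBPG windows, and in 32.0% of all windows.
One further element is shown because it joins C/EBP and ATF half-sites. TGATGNAA, searched on both strands, was found in 1 member window, 42 bases before the downstream CEBPG start, and in 3.14% of all windows. The stretch around it lies at chr19:33374061-33374088, plus strand, with the match in capitals.
CEBPG: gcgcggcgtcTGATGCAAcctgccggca
These matches describe letters in short windows, and no binding was measured.

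Every C/EBP probe set that was bright enough to test was lower after induction, whereas CEBPD was dim in both groups. Intensities are given as log2 values, and a probe set was tested where it exceeded a log2 value of 4 on at least 3 of the 6 arrays. Of the 8 member probe sets 6 passed this filter, and 6 of these 6 were lower in induced samples (limma, Benjamini-Hochberg adjusted p under 0.05). Among all 20552 tested probe sets 27.9% were lower and 62.5% changed in either direction, so a change by itself was common on these arrays. Counted by gene, 5 of 5 tested members were lower, against 30.7% of the 9836 genes tested. The groups did not overlap in 6 of 6 member probe sets, against 70.2% of all. In bulk samples such as these, fewer cells that express a gene and less RNA per cell cannot be told apart. The GAPDH control read at the 3′ end exceeded that read at the 5′ end, a measure of RNA integrity, by 0.481 to 0.530 in uninduced and by 0.555 to 0.619 in induced samples (log2). For the ACTB control the same gap was wider and the groups overlapped, at 1.153 to 1.306 and 1.296 to 1.497. The part of RNA integrity in these results was not tested.

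**Figure D1:**
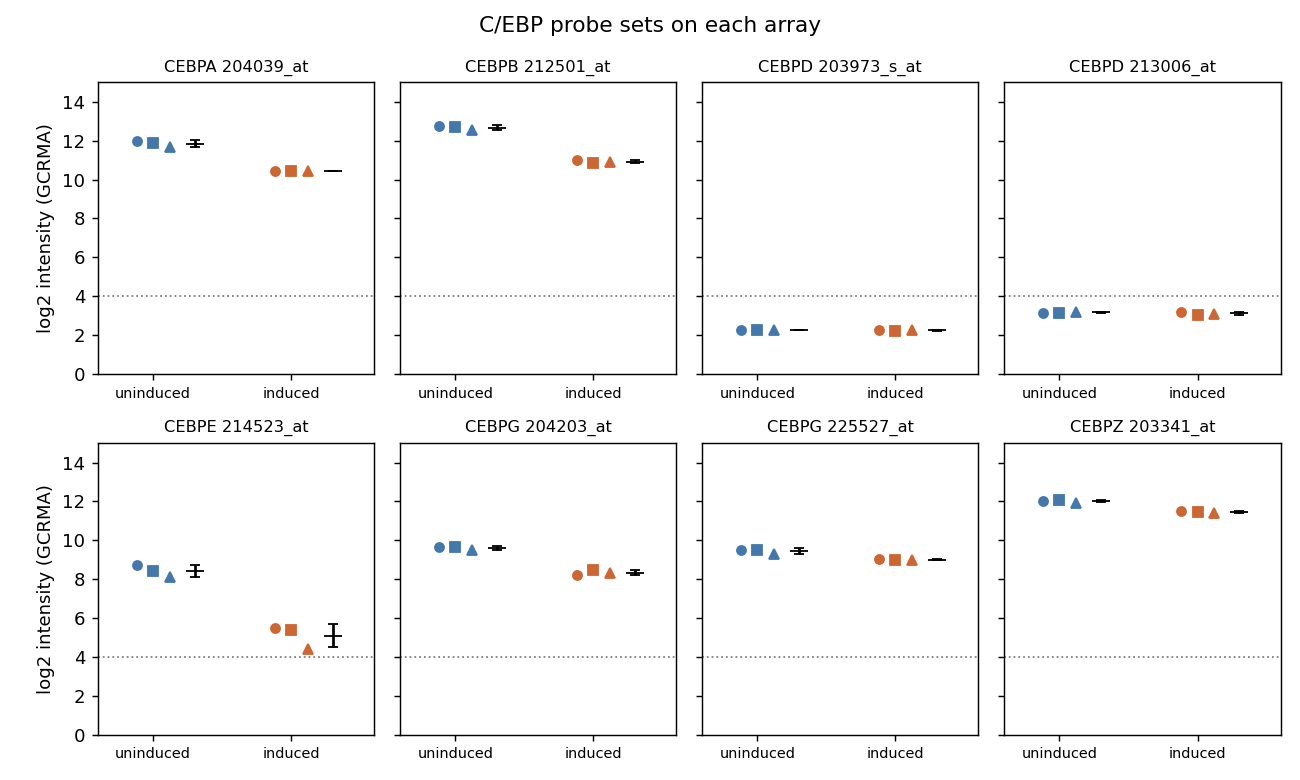
Log2 intensity of each of the 8 C/EBP probe sets on the 6 arrays, uninduced in blue and induced in orange, with circles, squares and triangles for replicates 1, 2 and 3, and black bars for the mean ± SD (n = 3). The dotted line is the log2 value of 4 used as the filter; both CEBPD probe sets lie below it, and the groups of the other 6 do not overlap.

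CEBPE, the factor of late granulocyte maturation, fell most among the members. Its log2 intensity was 8.73, 8.43 and 8.13 in uninduced replicates 1, 2 and 3, and 5.51, 5.41 and 4.40 in induced replicates 1, 2 and 3. All 3 uninduced arrays lay above all 3 induced ones, and induced replicate 3 lay lowest. The group means were 8.43 ± 0.30 and 5.10 ± 0.61 (SD, n = 3 each), a difference of -3.33 with a standard error of 0.31, or a 10.0-fold fall (limma, adjusted p = 9.04e-05). Without induced replicate 3 the difference was -2.98 (adjusted p = 5.48e-05). In absolute size the change exceeded 98.9% of those of all tested probe sets. The induced arrays lay close to the filter, and the standard error was the largest of the family.

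CEBPA, the factor of the granulocyte-monocyte progenitor step, was among the bright members and fell less. It measured 11.99, 11.88 and 11.66 in uninduced replicates 1, 2 and 3, against 10.46, 10.44 and 10.43 in the induced ones. The induced arrays spanned a far narrower range than the uninduced, of which replicate 3 was the lowest. The means were 11.84 ± 0.17 and 10.45 ± 0.01 (SD, n = 3 each), which is 2.64-fold lower (difference -1.40, SE 0.09; limma, adjusted p = 1.98e-05).

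CEBPB, which directs inflammatory gene expression and can stand in for C/EBP alpha in stress-driven granulopoiesis, fell from a high level as well. Its log2 intensity was 12.77, 12.70 and 12.54 in uninduced replicates 1, 2 and 3, and 11.01, 10.86 and 10.90 in induced replicates 1, 2 and 3. The means of 12.67 ± 0.12 and 10.92 ± 0.08 (SD, n = 3 each) differed by -1.75 (SE 0.08), a 3.36-fold fall, with the smallest adjusted p of the family (limma, 5.31e-06).

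CEBPD, the acute phase partner of C/EBP beta, gave no signal above the filter on any array. Probe set 203973_s_at measured 2.26, 2.26 and 2.28 in uninduced replicates 1, 2 and 3, and 2.28, 2.24 and 2.26 in the induced ones. Probe set 213006_at measured 3.14, 3.15 and 3.22 in uninduced and 3.19, 3.06 and 3.10 in induced replicates, in the same order. The groups overlapped in both probe sets, and in a fit without the filter the differences were -0.01 (SE 0.02; limma, adjusted p = 1) and -0.05 (SE 0.04; adjusted p = 0.654). At this level a fall could not have been seen, and no fold is given.

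CEBPG, the short C/EBP that serves as a dimer partner, was lower in both of its probe sets but not by the same amount. Probe set 204203_at measured 9.67, 9.68 and 9.49 in uninduced replicates 1, 2 and 3, and 8.20, 8.46 and 8.33 in induced replicates 1, 2 and 3, which is 2.43-fold lower (difference -1.28, SE 0.09; limma, adjusted p = 2.70e-05). Probe set 225527_at measured 9.53, 9.52 and 9.28, and then 9.06, 8.99 and 8.99, which is 1.35-fold lower (difference -0.43, SE 0.09; adjusted p = 0.00385). The groups were separate in each, yet within an array the first probe set fell by 0.85 more than the second on the log2 scale (two-sided exact permutation p = 0.1, the smallest that 3 against 3 allows). Which stretch of the transcript each probe set reads was not analysed here. The size of the CEBPG fall is therefore not settled by these values, and it may depend on the transcript read.

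CEBPZ, the ribosome assembly protein, showed a small fall on tight replicates. It measured 12.05, 12.09 and 11.94 in uninduced replicates 1, 2 and 3, and 11.51, 11.48 and 11.38 in the induced ones. The means of 12.02 ± 0.07 and 11.46 ± 0.07 (SD, n = 3 each) differed by -0.57 (SE 0.07), a 1.48-fold fall (limma, adjusted p = 3.62e-04).

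Uninduced replicate 3 was the lowest uninduced array in each of the 6 tested member probe sets. The 75th percentile of all log2 values was also lower on that array, at 6.92 against 7.11 to 7.18 on the others. Left out, it changed no call, and the differences became -3.48 for CEBPE, -1.49 for CEBPA, -1.81 for CEBPB, -1.34 and -0.51 for the CEBPG probe sets and -0.61 for CEBPZ.

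**Figure D2:**
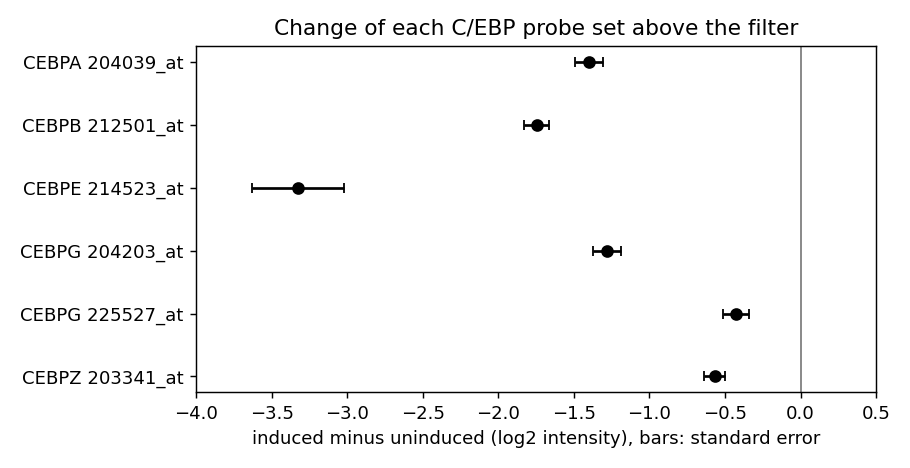
Induced minus uninduced log2 intensity of the 6 tested C/EBP probe sets, with the standard error of the limma fit as bars. All lie left of 0, from -3.33 for CEBPE to -0.43 for CEBPG probe set 225527_at.

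Whether members fell by unequal amounts was asked within arrays, where a constant shift of an array cancels. For this, 1 probe set stood for each of the 5 tested genes (the brighter, 225527_at, for CEBPG), which gave 10 pairs. The gap between CEBPA and CEBPE widened by 1.93 on the log2 scale (SE 0.36), and that between CEBPB and CEBPE by 1.58 (SE 0.36). The change of CEBPB was 0.35 larger than that of CEBPA (SE 0.05) and 1.18 larger than that of CEBPZ (SE 0.06). The changes of CEBPG and CEBPZ were closest, 0.14 apart (SE 0.05). In each of the 10 pairs the exact permutation p was 0.1 before and after Benjamini-Hochberg adjustment, the smallest this design can give, so no pair could pass 0.05. With CEBPG read by its other probe set, whose change was -1.28, its place beside CEBPZ would not hold.

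Genes with the most similar course over the 6 arrays were sought among the other 9831 tested genes, by the root mean square difference of log2 values after each gene was centred on its own mean. Closest to CEBPE were SLC29A1 (0.217), NLE1 (0.237) and ZNF438 (0.265), at larger differences than for any other member. The measure is not scaled, and CEBPE had the largest change and spread of the tested members, so these distances are not comparable between members. MRPL12 (0.029), TCIRG1 (0.038) and NSUN5P1 (0.041) were closest to CEBPA. ABCF2 (0.039), TSR1 (0.042) and ABHD14B (0.043) were closest to CEBPB. For CEBPG they were ARRDC1 (0.016), MGAT4A (0.022) and SNRPE (0.028), and for CEBPZ they were SKI (0.018), SHLD2 (0.018) and DNAJC10 (0.019). These genes share the 6 arrays and the step between the 2 groups with the member, so the measure is only a description.

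Among genes that control C/EBP mRNA, translation or protein, the pseudokinases TRIB1 and TRIB2 rose and SPI1 fell. Both are known to bring C/EBP alpha to the ubiquitin ligase COP1 for degradation. TRIB1 went from 2.91 ± 0.04 to 6.96 ± 0.11 (SD, n = 3 each) and lay below the filter on all uninduced arrays, so that it was at least 7.75-fold higher, the induced mean being set against the filter (limma, adjusted p = 1.97e-07). TRIB2 went from 3.64 ± 0.61 to 9.01 ± 0.16 (adjusted p = 7.83e-06). No fold is given because 1 of its 3 uninduced arrays lay above the filter, and 2 of its 2 tested probe sets rose. COP1 itself (difference -0.05, adjusted p = 0.558) and its adaptor DET1 (-0.04, adjusted p = 0.659) did not pass the test, although for COP1 the dimmer of its 2 probe sets was lower.

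SPI1 (PU.1), which binds regulatory DNA together with C/EBP alpha in myeloid genes, fell from 7.12 ± 0.19 to 3.16 ± 0.33, at least 8.70-fold (limma, adjusted p = 4.32e-06). RB1, a partner of C/EBP factors in cell cycle exit, was 1.89-fold higher, and the kinase GSK3B, which phosphorylates C/EBP alpha and beta, was 1.76-fold higher, with 3 of its 4 tested probe sets called. EIF2AK2 (PKR) was 1.58-fold higher and its substrate EIF2S1 (eIF2 alpha) 1.54-fold lower, though by only 1 of its 3 tested probe sets; this pathway sets which start codon of CEBPA and CEBPB mRNA is used. CELF1 and CALR, which bind CEBPA and CEBPB mRNA, differed by 0.18 and -0.11 and did not pass (adjusted p = 0.102 and 0.180), although 1 of the 3 tested CALR probe sets was lower. Of 19 tested genes of this list 7 rose, 3 fell and 9 did not pass, with a median difference of -0.01, against 0.02 over all tested genes. That is 52.6% called, where 66.5% of all genes were; with the probe sets of a gene averaged, 8 rose and 5 fell. The kinases CDK4 (1.77-fold lower) and CDK2 (1.29-fold higher, in 1 of its 2 tested probe sets), whose activity C/EBP alpha restrains, went opposite ways, and CDK6 did not pass (0.11, adjusted p = 0.213).

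**Figure D3:**
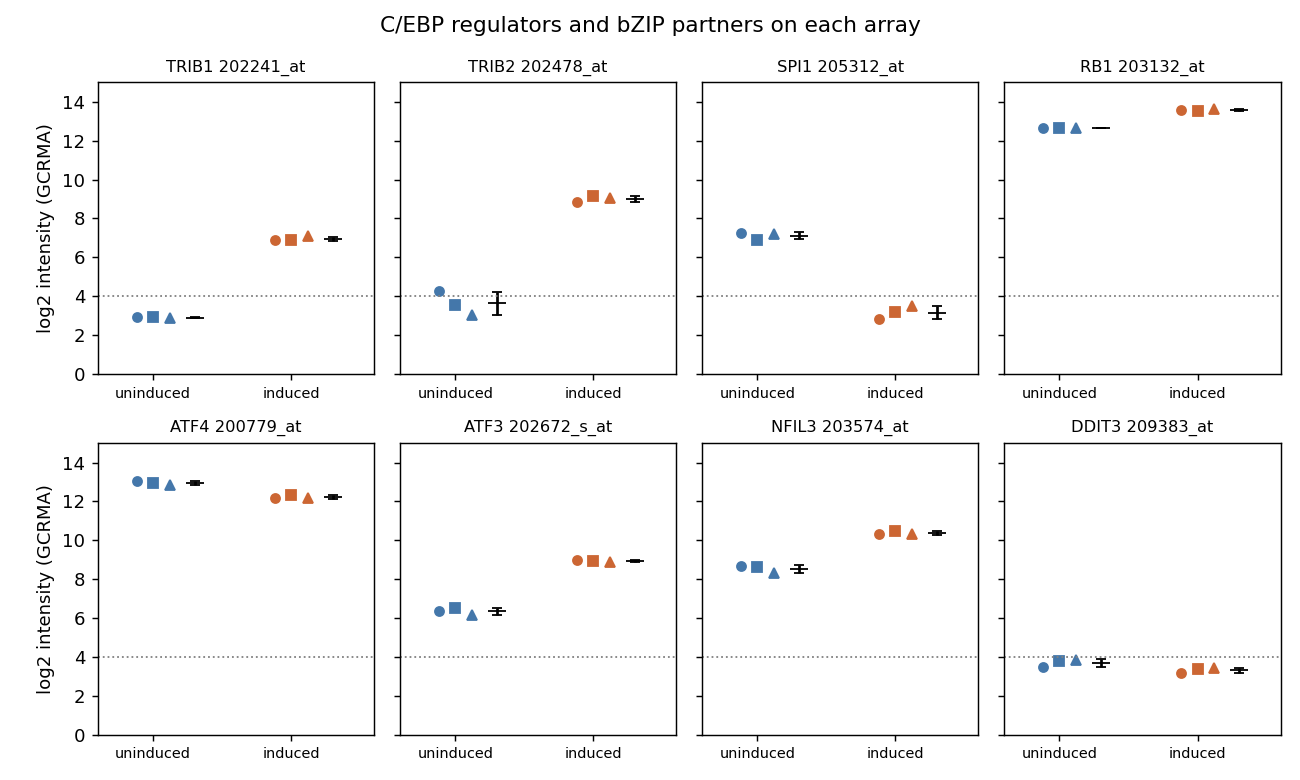
Log2 intensity of 8 regulators and partners of C/EBP factors on the 6 arrays, drawn as in the plot of the C/EBP probe sets. TRIB1 and TRIB2 rise from near or below the dotted filter line at 4, SPI1 drops below it, and DDIT3 stays below it on all arrays.

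The leucine zipper factors that pair with C/EBP proteins or bind related sites went both ways. ATF4, the main partner of CEBPG and CEBPB under amino acid stress, fell 1.64-fold, from 12.95 ± 0.08 to 12.23 ± 0.08 (SD, n = 3 each; limma, adjusted p = 1.67e-04), and ATF5 fell 1.44-fold, with 2 of its 3 tested probe sets called. BATF3 fell 2.66-fold (adjusted p = 0.012) and the clock output factor DBP 1.84-fold. In the other direction ATF3 was 5.99-fold higher, NFIL3, a repressor that recognises sites like those of C/EBP, 3.55-fold higher, and JUN 1.91-fold higher. DDIT3 (CHOP), an inhibitory C/EBP relative induced by stress, lay below the filter on all arrays, at 3.70 ± 0.21 and 3.33 ± 0.14. Of 9 tested members 3 rose, 4 fell and 2 did not pass, a median of -0.18. That is 77.8% called, near the 66.5% of all genes, and with the filter at a log2 value of 6 the count was 3 up and 2 down of 7.

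Granulocytic genes whose promoters are known to respond to C/EBP factors were mostly lower, but 4 were higher. The neutrophil elastase gene ELANE fell from 12.92 ± 0.11 to 10.12 ± 0.12 (SD, n = 3 each), 6.95-fold (limma, adjusted p = 1.30e-06), and the related protease genes PRTN3 and CTSG fell 9.90-fold and 3.50-fold. MS4A3 was 5.40-fold lower, and the G-CSF receptor gene CSF3R, a textbook target of C/EBP alpha, 1.55-fold lower (adjusted p = 7.12e-04). Against this direction CAMP, a secondary granule gene that depends on C/EBP epsilon in maturing neutrophils, rose from 2.85 ± 0.01 to 9.27 ± 0.15, at least 38.5-fold (adjusted p = 6.47e-08). S100A8 went from 4.22 ± 0.29 to 8.13 ± 0.15, with 1 uninduced array below the filter, and S100A9 and ITGAM were the other genes that rose. ITGAM went from 4.22 ± 0.38 to 5.20 ± 0.14, also with 1 uninduced array below the filter. The secondary and tertiary granule genes LTF (2.28 and 2.30), LCN2 (2.07 in both), MMP8 and MMP9, as well as MPO (2.69 and 3.12), lay below the filter on all arrays. Of 17 tested genes 4 rose, 11 fell and 2 did not pass, with a median of -0.63. That is 88.2% called, against 66.5% of all tested genes, of which 30.7% were lower.

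Few of the inflammatory and acute phase genes linked to C/EBP beta and delta could be tested. Of 23 in the list 19 had a probe set naming only that gene, and 5 passed the filter. Of these 5 tested genes 2 rose and 3 fell, too few to set against the 66.5% of all genes called. With no filter 4 rose and 3 fell among 19, the added rises being IL1B and PTGS2. IL1B (2.45 and 3.99) lay above the filter on only 2 of 3 induced arrays and on 0 uninduced arrays. PTGS2 (2.91 and 3.32) lay below it on all arrays. The chemokine CXCL8 fell from 9.11 ± 0.03 to 4.02 ± 0.24, with 2 of 3 induced arrays above the filter, SOD2 was 3.29-fold and CCL5 2.47-fold lower. PTX3 was 31.0-fold higher and TNF 2.70-fold higher (limma, adjusted p = 6.08e-04). IL6, the classical C/EBP beta target, lay at 2.57 and 2.55, and CD14 at 2.10 and 2.09, below the filter in both groups.

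Genes with elements that bind C/EBP-ATF dimers were almost all lower, beside the fall of CEBPG, CEBPB and ATF4. Of 18 tested, 16 fell, 1 rose and 1 did not pass, a median log2 change of -0.95. That is 94.4% called, against 66.5% of all tested genes, of which 30.7% were lower. CHAC1, which degrades glutathione, was at least 3.03-fold lower, asparagine synthetase ASNS 2.69-fold, the serine pathway enzyme PSAT1 2.55-fold, the pseudokinase TRIB3 2.48-fold and the growth factor VEGFA 4.22-fold lower. The cystathionine lyase CTH was 5.76-fold and DDIT4 4.35-fold lower. The amino acid transporter SLC38A2 was the gene that rose, 1.46-fold (limma, adjusted p = 2.32e-04; 3 of its 3 tested probe sets), and GCLC did not pass (0.13, adjusted p = 0.202).

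The ribosome assembly factors listed beside CEBPZ, not all of them (NOC4L for one) specific to the large subunit, were nearly all lower. Of these, 15 of 20 had a larger measured fall than CEBPZ, a difference that was not tested. NOC2L, with which CEBPZ forms a complex on the nascent subunit, was 2.41-fold lower (11.05 ± 0.16 to 9.78 ± 0.07, SD, n = 3 each; limma, adjusted p = 3.25e-05), NOC3L 3.51-fold and NOC4L 2.09-fold lower. RRS1 (4.43-fold), NOP2 (3.89-fold), PES1 (3.55-fold), RPF2 (2.70-fold) and WDR12 (2.69-fold) were lower as well. Of 20 tested genes 19 fell and 0 rose, where 30.7% of all tested genes were lower, and the median was -1.25 against -0.57 for CEBPZ. NPM1, an abundant nucleolar protein, did not pass (-0.14, adjusted p = 0.139), though 2 of its 3 tested probe sets were lower.

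**Figure D4:**
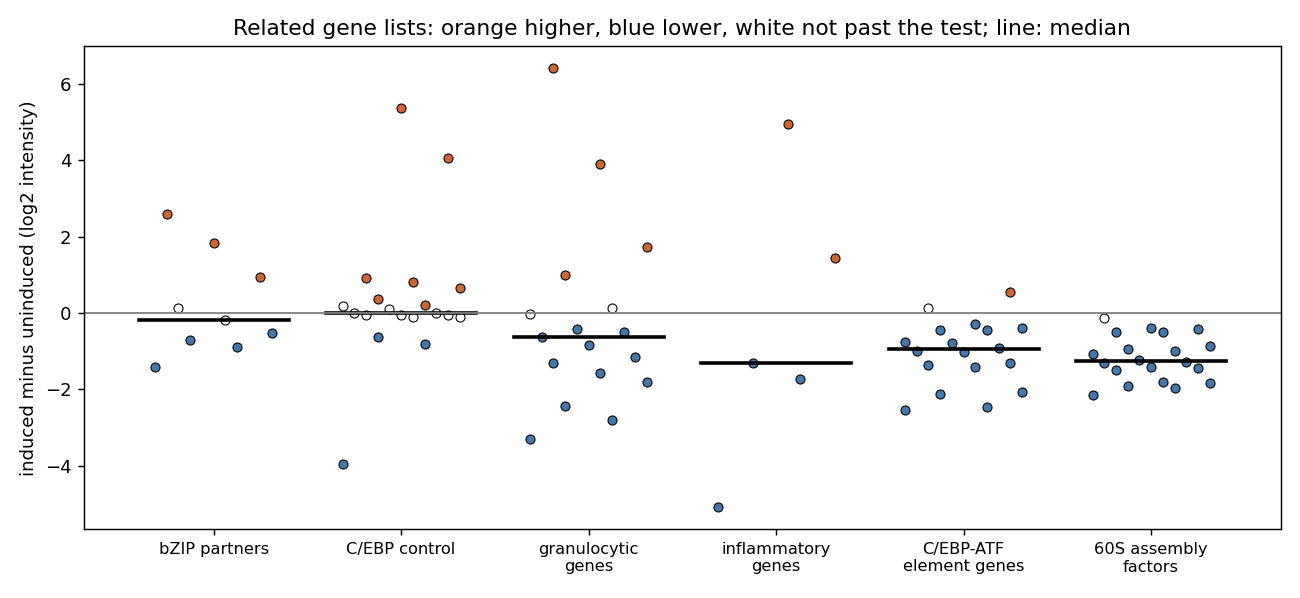
Induced minus uninduced log2 intensity of each tested gene in the 6 related lists, orange where higher, blue where lower and white where the test was not passed, with a black line at each list's median. The genes with C/EBP-ATF elements and the ribosome assembly factors lie nearly all below 0 (medians -0.95 and -1.25), while the list of C/EBP control genes is centred at -0.01.

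The line was checked against cell type markers. Of 10 myeloid markers with a probe set, 5 passed the filter (LYZ, PTPRC, CD4, CSF3R and ITGAM), while MPO, ANPEP, CD14, CSF1R and FCGR1A lay below it on all arrays. Of 6 T cell markers 6 lay below the filter on all arrays, with summed intensities of 30.65 to 31.6 in uninduced and 31.88 to 32.74 in induced samples. B cell markers summed to 56.47 to 58.25 and 60.62 to 65.49, and erythroid markers to 77.35 to 87.0 and 44.66 to 47.39, where KLF1 fell. The B cell marker PAX5 (means 4.90 and 4.76) and the erythroid marker EPOR (4.70 and 4.71) lay a little above the filter on all arrays. CD79B (2.81 and 4.12) lay above it on 2 of 3 induced arrays. Epithelial and fibroblast markers summed to 336.1 to 359.3 and 240.2 to 262.6, nearly all from COL1A1 probe set 217430_x_at, which was lower while the other 2 tested COL1A1 probe sets were higher. The myeloid markers summed to 20820 to 22230 and 24700 to 26050, but of the 5 tested 3 were higher and 2 lower. The higher sum came from PTPRC, with intensities of 4349.8 to 4830.2 in uninduced and 15376 to 15741 in induced samples. LYZ fell from 15560 to 16386 down to 8263.6 to 9588.5, and CSF3R was lower as well.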

How the data were processed

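RNA of 6 samples, 3 uninduced and 3 induced, was measured on Affymetrix HG-U133 Plus 2.0 arrays, with groups and replicate numbers taken from the titles. The authors deposited 1 intensity per probe set and array, and the submitters' processing notes name GCRMA as the method. Its version, and whether the arrays were normalized together, is not given in the sources used here. Values were on a linear scale, with array medians from 8.05 to 8.41. Arrays correlated at r = 0.9963 to 0.9976 within and 0.9317 to 0.9381 between groups.

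The log2 was taken after the 6 values under 1 were raised to 1, and 62 control probe sets were left out. In GEO's annotation 41091 probe sets had 1 symbol, 1801 had several and 11721 had no symbol. Entrez identifiers matched the RefSeq table (GRCh38.p14) for 41037, with 0 symbols changed. The 20552 probe sets above a log2 value of 4 on at least 3 arrays were tested with R 4.3.3 and limma 3.58.1 (two-sided, from lmFit and eBayes without covariates). Benjamini-Hochberg adjustment ran over all of them, with a threshold of 0.05. Among the tested probe sets of a listed gene, the one of highest mean represented it. A group with all arrays at or below the filter gives a fold of "at least", against a log2 value of 4.

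The members and lists were chosen with earlier results of these data known. Named were all member probe sets, in each list up to 6 genes of smallest adjusted p, and DDIT3, ATF4, SPI1, TRIB1, TRIB2, CSF3R, ELANE, MPO, NOC2L and NOC3L, plus the 3 most similar genes per member; other names were chosen after their values were seen. Data were simulated for this comparison on 20552 probe sets, with 50 changed at each size. The fit found 44% of probe sets with a log2 change of 0.5, 88% with a change of 1 and 96% with a change of 2. There were 7 wrong calls among 171. Far fewer probe sets changed there than the 12845 called in the real data, so these rates do not carry over directly. Alternatives were no filter, a filter at 6, quantile normalization, median centring over the tested probe sets, log2(value + 16), array weights, a robust eBayes with a trend, a block for the replicate number, averaging the probe sets of a gene and leaving out each array. Figures used matplotlib 3.10.9 in Python 3.11.15.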

Additional observations from a re-analysis of the deposited data

How the results depend on the processing

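The 6 tested C/EBP probe sets remained lower and past the threshold under each of the 14 alternatives. Their differences ranged from -3.66 to -2.82 for CEBPE, -1.49 to -1.32 for CEBPA, -1.83 to -1.70 for CEBPB, -1.36 to -1.22 and -0.51 to -0.39 for the CEBPG probe sets 204203_at and 225527_at, and -0.65 to -0.53 for CEBPZ. The highest adjusted p was 0.0162 (limma), for CEBPG probe set 225527_at without induced replicate 3. The direction of more frequent calls over all probe sets did depend on scaling: 7112 were higher and 5733 lower as reported, quantile normalization gave 6752 and 8114, and median centring gave 6573 and 7124. With a replicate block 12809 probe sets were called and 6 of 6 tested C/EBP probe sets stayed lower, at adjusted p from 5.16e-05 to 0.00582 (limma). Deviations of same-numbered arrays correlated at -0.17, 0.00 and 0.18, and those of differently numbered arrays at -0.238 to 0.209. With 3 arrays a group, this cannot show whether same-numbered samples belong together. The labels give only the number, and the samples were not treated as pairs. The total called in each of the 6 related lists stayed within 1.5 times the reported one under the 15 alternatives. Counts by direction moved further in 3 cases: partners to 2 lower of 7 with the filter at 6, control genes to 5 lower of 19 with probe sets averaged, and inflammatory genes to 4 higher of 19 with no filter. The inflammatory genes gained in the last case, IL1B and PTGS2, lay near or below the filter. Signal over background limits CEBPD, for which a fall could not have been seen, and the size of the CEBPE fall.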

Other observations

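Transcripts that neighbour member genes were also on the array. CEBPA-DT, a transcript divergent from CEBPA with its span at chr19:33302821-33305057 (GRCh38.p14), measured 6.75, 7.11 and 6.88 in uninduced replicates 1, 2 and 3, and 6.87, 6.77 and 6.81 in the induced ones. The groups overlapped and its difference of -0.10 (SE 0.10) did not pass the test (limma, adjusted p = 0.430), beside the fall of -1.40 in CEBPA; the difference between these changes was not tested.

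CEBPZOS, a gene whose span (chr2:37196496-37216193) overlaps that of CEBPZ, was read by 3 probe sets. Only 229746_x_at was lower in induced samples, from 8.91 ± 0.23 to 8.29 ± 0.37 (SD, n = 3 each; difference -0.62, limma, adjusted p = 0.0312), while 1564381_s_at and 231819_at differed by -0.28 and -0.31 and did not pass (adjusted p = 0.563 and 0.423). Values spread more within the groups than for CEBPZ: 1564381_s_at measured 7.42, 6.59 and 7.88 in uninduced replicates 1, 2 and 3, and 6.48, 6.88 and 7.67 in the induced ones.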
